A study of Mus musculus with 24 samples.

Results

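Hindpaw incision on postnatal day 3 (P3) was compared with no incision in the nuclear RNA of spinal dorsal horn astrocytes 1 day later, at P4. The comparison rests on 8 of the 24 libraries of the series, chosen by the age and treatment in their titles: 4 from naive pups (females F1 and F2, males M1 and M2) and 4 from incised pups (female F1, males M1, M2 and M3). Each library came from 1 pup. All 8 pups, controls included, carried the alleles Aldh1l1-creERT2(+/-); R26-LSL-Sun1.GFP(+/-). In these mice a Cre recombinase that depends on tamoxifen is expressed under the astrocyte gene Aldh1l1, and recombined cells carry GFP on the nuclear envelope through the Sun1 fusion. The induction schedule is not given in the sources used here. The incision was made in the hindpaw of a single side, and naive pups were exposed to isoflurane without surgery. Dorsal horn of segments L3 to L5 on the operated side was taken, and GFP-positive nuclei were sorted, so that any cell with an active Aldh1l1 promoter at induction could enter the gate. The labels do not say which pups shared a litter, and the p-values below measure the spread between these pups.

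Astrocytes of the dorsal horn take up glutamate and GABA, buffer potassium and water, and secrete proteins that shape synapses while circuits mature in the first weeks after birth. When astrocytes change shape or move, they rebuild actin filaments and intermediate filaments and alter the matrix around them. Actin and its partners are also targets of serum response factor, whose coactivator is held back by free actin monomers, so that filament assembly and transcription of contractile genes are linked in many cell types. Nuclear RNA holds unspliced and newly made transcripts beside mature ones, and its levels need not equal those of the cytoplasm.

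The deposited values are normalized expression per gene, on a linear scale, and are given below in the order F1, F2, M1, M2 for naive and F1, M1, M2, M3 for incised pups. Sums of the normalized values ran from 3880000 to 4381000 per library, while sequencing depth is unknown. Incised libraries resembled each other less than naive libraries did: Spearman correlations were 0.824 to 0.874 within the incised group, 0.924 to 0.960 within the naive group and 0.861 to 0.907 between groups. The median SD of log2 values within a group was 0.537 for incised and 0.306 for naive pups, and 78.3% of 14243 genes (11153) had the larger SD in the incised group. Between 6 and 44 genes were listed at 0 in an incised library and between 4 and 9 in a naive library. The part of this unequal spread in the results below was not tested.

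Markers of the labelled cell type were present in both groups. All 25 genes of an astrocyte identity list were measured. None of them was at 0 in any library, and the same held for the measured lists of other cell types below. The summed level of the 25 genes was 177100 to 217900 in naive and 182000 to 294900 in incised libraries. Their median log2 change was -0.01, with 0 genes called and 1, Fgfr3, higher in every incised than in every naive library (4%, against 3.08% of all genes). Aldh1l1, the gene that drives the sort, held 1362, 1486, 1489 and 987 in naive and 1189, 1287, 1213 and 1522 in incised libraries. Gja1, which encodes the gap junction protein connexin 43, held 16370, 17340, 16100 and 13550 in naive and 9350, 15330, 13770 and 21870 in incised libraries. Both sets overlapped, as did those of the transcription factor Sox9, the water channel Aqp4, the potassium channel Kcnj10 and the glutamate transporters Slc1a2 and Slc1a3. The signs of the small log2 changes of Aldh1l1 (-0.0036), Gja1 (-0.19), Slc1a2 (-0.05) and Slc1a3 (-0.16) turned under other settings. Sox9 differed by -0.14, Aqp4 by 0.25 and Kcnj10 by 0.45 on the log2 scale, with adjusted p of 0.858, 0.786 and 0.651. Gfap, given in full below, differed by -0.47 (adjusted p = 0.552), and its groups overlapped.

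Marker genes of other cell types were detected in both groups. Their sums were 8562 to 10980 in naive and 6695 to 11920 in incised libraries for 18 neuronal genes, 1317 to 2403 and 1147 to 3320 for 11 oligodendrocyte genes, and 857 to 1067 and 811 to 1242 for 9 microglial genes. The sums were 1362 to 1600 and 1885 to 2256 for 12 genes of oligodendrocyte precursors, which was higher in every incised library, with a median log2 change of 0.36 and 0 genes called. Endothelial genes (10 measured) summed to 1269 to 1782 in naive and 1224 to 1850 in incised libraries, and fibroblast and meningeal genes (10 measured) to 1586 to 2389 and 1623 to 2732. The 7 measured Schwann cell genes summed to 673 to 974 and 621 to 1212, and the 4 measured ependymal genes to 697 to 1053 and 525 to 1209. No gene of these lists was at 0 in any library. The 13 blood genes of the lists and the mitochondrial transcripts were not among the genes measured here. Nor were the sex-linked genes Xist, Ddx3y, Eif2s3y, Kdm5d and Uty. The labelled sex of the pups, a term of the fit, could therefore not be checked with them. In such sorted material fewer cells of a type and less RNA per cell cannot be told apart.

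In limma's moderated test over 14243 genes, with group and sex as terms, 4 genes rose after incision at a Benjamini-Hochberg adjusted p under 0.05, which is 0.0281% of the genes tested. No gene fell at that threshold (0.0%). At an unadjusted p under 0.05, 542 genes (3.81%) were higher and 599 (4.21%) were lower. Every incised library exceeded every naive library in 438 genes (3.08%), and every incised library lay below every naive library in 402 (2.82%). The authors kept genes with a normalized expression over 20 in some group, so a gene under that floor in the lower group could enter the table through the group where it was high; 77 of the 438 had a naive mean under 20 and 44 of the 402 an incised mean under 20. The median log2 change over all genes was -0.023, and 47.8% of the changes were positive.

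The 4 genes that rose encode a secreted matrix protein that shapes synapses, an actin-binding filament protein, a subunit of the iron store ferritin and a fibulin of the matrix. Thbs1, which encodes thrombospondin 1 (chr2:118111876-118127133 in GRCm38, plus strand), held 120.5, 69.4, 83.9 and 76.9 in naive and 502, 611, 408 and 306 in incised libraries. The lowest incised value was above the highest naive value by more than the whole range of the naive group. Thbs1 rose by 2.41 on the log2 scale (SE 0.30, adjusted p = 0.0300).

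Tpm2 encodes beta-tropomyosin, a coiled coil that lies along actin filaments and is best known from muscle (chr4:43514711-43523765, minus strand). It held 63.7, 28.5, 43.3 and 64.3 in naive and 460.4, 565, 238 and 261 in incised libraries. Incised F1 and M1 held the higher pair of values, and the groups did not overlap. Tpm2 rose by 2.89 (SE 0.40, adjusted p = 0.0387), the largest change of the 4 called genes.

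Efemp1 encodes fibulin-3, a glycoprotein of the extracellular matrix (chr11:28853204-28926743, plus strand). Its values were 60.6, 30.8, 30.2 and 41.6 in naive and 217, 226, 222 and 165 in incised libraries. Incised F1, M1 and M2 lay close together and M3 lay below them, still above every naive pup. Efemp1 rose by 2.42 (SE 0.35, adjusted p = 0.0387).

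Fth1 encodes the heavy chain of ferritin, the subunit that oxidizes iron as it enters the ferritin shell (chr19:9980598-9985098, plus strand). It held 1232, 952, 846 and 829 in naive and 2862, 2600, 2457 and 1578 in incised libraries. The lowest incised value was that of M3 and the highest naive value that of F1, and the groups did not overlap. Fth1 rose by 1.38 (SE 0.20, adjusted p = 0.0387), and by 1.28 (adjusted p = 0.0724) once each library's trend with gene span had been removed. Its processed copies in the genome make the assignment of reads less certain than for the other 3.

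**Figure D1:**
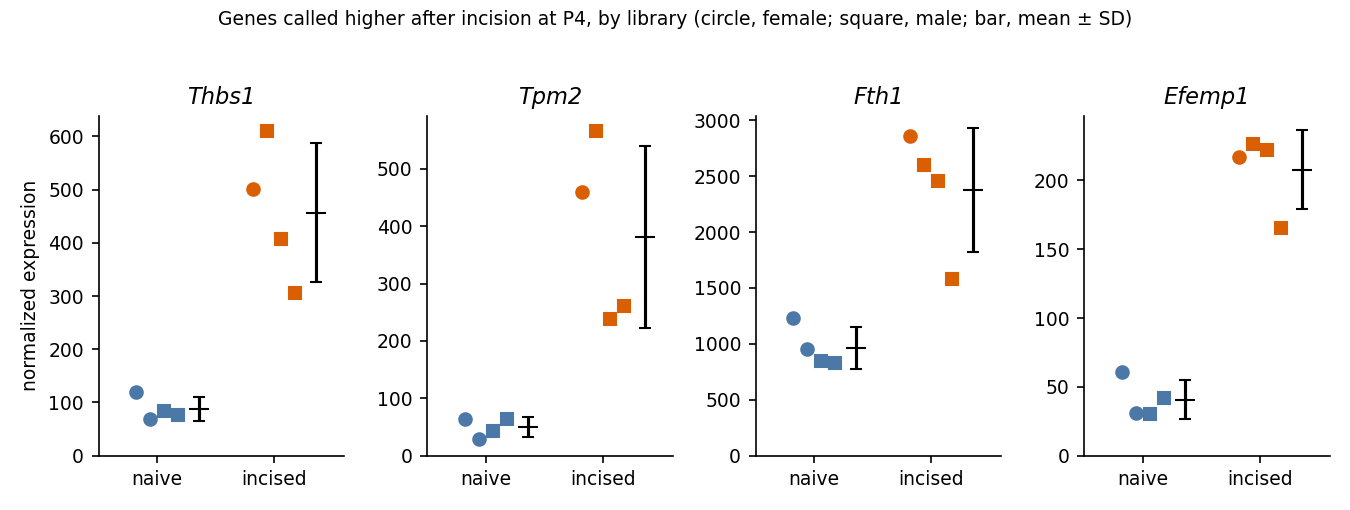
Normalized expression (linear axis from 0) of the 4 genes called higher after incision, with 1 point per library; circles are females, squares males, and the black bar is the mean ± SD of 4 libraries. The incised points lie above all naive points in each panel, from Thbs1 (306 to 611 against 69.4 to 120.5) to Fth1 (1578 to 2862 against 829 to 1232).

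The 4 calls needed most of the libraries. Their direction could not turn in these fits, since every incised library exceeded every naive library in each of the 4 genes. All 4 genes remained called without naive F1 and without incised M3. None of them remained called without naive F2 (adjusted p 0.0595 to 0.136), naive M1 (0.313 to 0.3497), naive M2 (0.173 to 0.2199), incised F1 (0.702), incised M1 (0.0724 to 0.0948) or incised M2 (0.0555 to 0.0856). Their log2 changes over these 8 fits ran from 2.25 to 2.55 for Thbs1, 2.61 to 3.13 for Tpm2, 2.28 to 2.57 for Efemp1 and 1.30 to 1.52 for Fth1. Incised F1 was the only incised female, so the fit without it took its log2 changes from males alone. Without limma's trend and robust settings the adjusted p of the 4 genes was 0.153 to 0.332.

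Stretches before annotated starts were chosen by the contrast and by annotation. Of the 15 genes of lowest p on the higher side, 10 had a RefSeq promoter. Among these, 4 had a single RefSeq start within 30 bases of the GENCODE start. They were Efemp1, the actin gene Acta1, the profilin gene Pfn1 and Serf2. Their higher values in incised libraries were fixed by that choice, and shared regulation was not tested. Within the incised group, M3 held the highest value of Serf2 (1499) and the lowest of Efemp1 (165), Acta1 (169) and Pfn1 (1667). Each stretch is the 250 bases before the start, 5′ to 3′ in the gene's orientation, from RefSeq on GRCm38.p6. Capitals mark matches, on either strand, to the serum response factor motif (the CArG box), the AP-1 motif TGANTCA, the TEAD motif GGAATG and the antioxidant element TGACNNNGC, and, read on the given strand alone, to the TATA box motif TATAAA.
Efemp1 (chr11:28852955-28853204, plus strand): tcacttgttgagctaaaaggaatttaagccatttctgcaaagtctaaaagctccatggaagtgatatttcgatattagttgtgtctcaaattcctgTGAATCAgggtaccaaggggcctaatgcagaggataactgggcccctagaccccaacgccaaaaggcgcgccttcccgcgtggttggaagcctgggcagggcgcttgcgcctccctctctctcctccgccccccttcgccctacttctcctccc
Acta1 (chr8:123894776-123895025, minus strand): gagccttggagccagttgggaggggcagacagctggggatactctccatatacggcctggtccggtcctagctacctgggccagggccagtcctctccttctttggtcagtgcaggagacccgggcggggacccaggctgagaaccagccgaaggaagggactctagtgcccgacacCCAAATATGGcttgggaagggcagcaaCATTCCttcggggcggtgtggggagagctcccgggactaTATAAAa
Pfn1 (chr11:70654651-70654900, minus strand): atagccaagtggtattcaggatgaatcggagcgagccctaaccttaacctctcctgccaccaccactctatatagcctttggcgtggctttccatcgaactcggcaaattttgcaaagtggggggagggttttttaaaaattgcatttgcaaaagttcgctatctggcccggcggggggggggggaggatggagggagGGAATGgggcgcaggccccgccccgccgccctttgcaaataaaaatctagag
Serf2 (chr2:121448948-121449197, plus strand): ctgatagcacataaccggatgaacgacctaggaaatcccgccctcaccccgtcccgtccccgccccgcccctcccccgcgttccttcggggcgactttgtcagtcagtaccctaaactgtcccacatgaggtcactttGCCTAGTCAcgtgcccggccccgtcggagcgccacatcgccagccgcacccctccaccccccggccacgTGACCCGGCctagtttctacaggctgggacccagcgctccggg

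Efemp1 held an AP-1 match whose first base lay 154 bases before the start. Acta1 held a CArG box at 73 bases before the start, a TEAD match at 46 and TATAAA at 7, and Pfn1 held a TEAD match at 52. All positions are counted from the RefSeq start. For Acta1 that start lies 24 bases upstream of the GENCODE start, so its matches lie farther from the latter. Serf2 held the antioxidant element at 112 and at 43 bases before the start. Among 32851 RefSeq promoters a CArG box was present in 1.47%, the AP-1 motif in 6.75%, the TEAD motif in 12.6%, TATAAA in 7.59% and the antioxidant element in 10.2%. The matches are descriptions of sequence and say nothing of binding in these nuclei.

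Beyond the called genes, the 15 genes of lowest p in each direction served varied functions. The groups of libraries did not overlap in 15 of 15 on the higher side and in 14 of 15 on the lower side. These genes were picked by this very contrast, so the count is a description. Of the 30 genes, 14 overlap an annotated gene of the other strand, Thbs1 among them, and whether the counting used strand is not given in the sources used here.

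**Figure D2:**
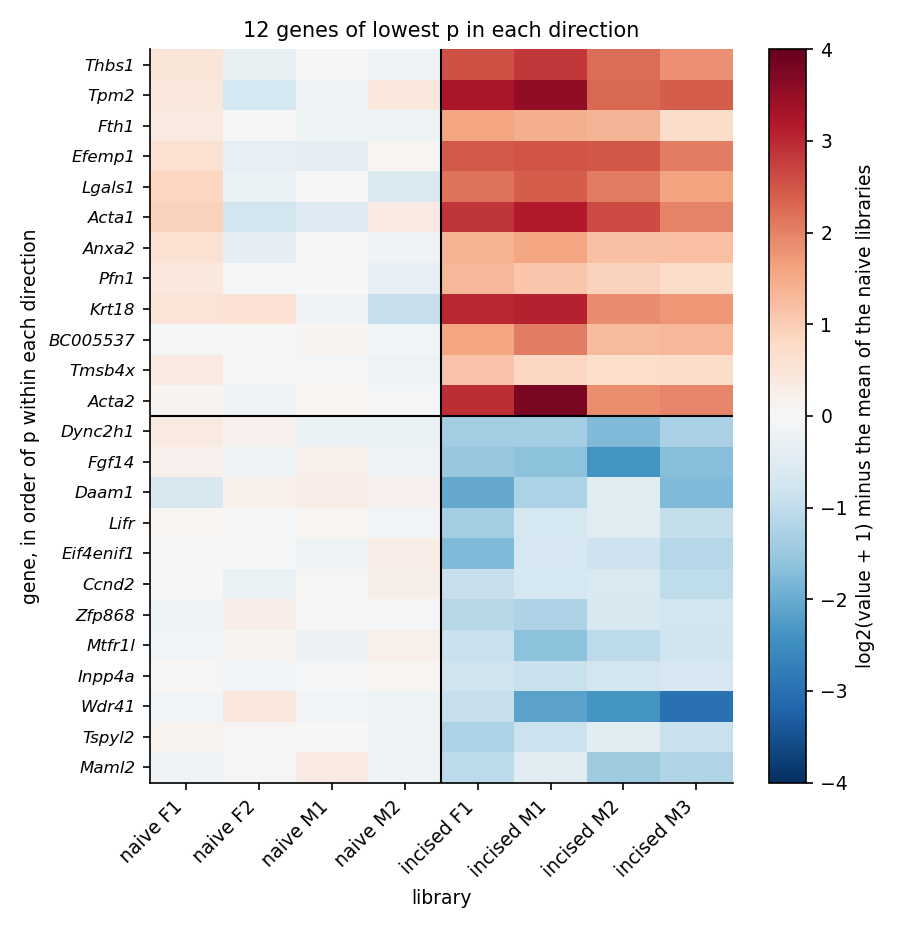
Colour gives log2(value + 1) minus the mean of the 4 naive libraries, for the 12 genes of lowest p in each direction (rows) and the 8 libraries (columns). Incised F1 and M1 are the darkest columns for Acta2, Tpm2 and Krt18, while Wdr41 is lowest in incised M3 and Daam1 in incised F1.

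The contractile actin cytoskeleton list held the called gene Tpm2. Of 55 genes on that list, all measured, 1 rose (Tpm2), 0 fell and 54 did not pass the test. Their median log2 change was 0.35 against -0.023 for all genes, and 43 of 55 changes were positive. Every incised library exceeded every naive library in 16 genes (29.1%, against 3.08% of all genes), of which Actg2, Pdlim1 and Capg had naive means under 20. In 2 genes, Tpm3 and Zyx, every incised library was lower (3.64%, against 2.82% of all genes). These shares of all genes are the measure for the share of every list below.

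Acta1, the actin of skeletal muscle, held 81.0, 24.9, 28.8 and 52.9 in naive and 310.4, 386, 259 and 169 in incised libraries, a log2 change of 2.71 (SE 0.43, adjusted p = 0.0661). Acta2, the actin of smooth muscle, held 26.3, 21.7, 25.8 and 23.5 in naive and 194, 344, 91.0 and 97.0 in incised libraries (2.68, SE 0.47, adjusted p = 0.0714). The naive values of Acta2 were nearly alike, and incised M1 held the highest. Neither actin passed the threshold with the settings used, and reads of the near-identical actin genes are hard to assign.

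Pfn1 encodes profilin, which hands actin monomers to growing filaments, and held 1338, 958, 1016 and 795 in naive and 2528, 2190, 1904 and 1667 in incised libraries (1.11, SE 0.19, adjusted p = 0.0690). Tmsb4x encodes thymosin beta 4, which sequesters actin monomers, and held 2605, 1958, 1904 and 1755 in naive and 4476, 3610, 3300 and 3359 in incised libraries (0.93, SE 0.16, adjusted p = 0.0714). The groups were apart for both genes, and incised F1 held the highest value of each. The other members whose groups were apart upward were Actg1, Actg2, Tagln, Myl6, Myl12b, Myh10, Tpm1, Tln1, Pdlim1, Cap1 and Capg.

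The cytoplasmic actins, chosen here after their values were seen, differed from each other. Actb held 10790, 10730, 10120 and 7794 in naive and 13220, 9692, 9292 and 9816 in incised libraries, which overlapped (0.18, adjusted p = 0.805). Actg1 held 2027, 1951, 1934 and 1919 in naive and 4726, 2905, 2896 and 2379 in incised libraries, which did not overlap (0.76, adjusted p = 0.295). Whether Actb and Actg1 changed unequally was not tested.

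Acta2 and Tagln are also markers of mural cells, the pericytes and smooth muscle of vessels. Tagln, which encodes the actin-binding protein transgelin, held 63.0, 30.7, 37.5 and 47.8 in naive and 196, 261, 90.1 and 134 in incised libraries (1.90, adjusted p = 0.211). Of the 14 mural markers listed, 11 were measured, none was at 0 in any library, and Acta2 and Tagln were the only 2 whose groups were apart. The mural list summed to 693 to 1094 in naive and 1127 to 1573 in incised libraries. The 8 mural markers outside the contractile list, Pdgfrb, Rgs5, Kcnj8, Abcc9, Cspg4, Des, Vtn and Notch3, summed to 616 to 981 in naive and 760 to 1356 in incised libraries, which overlapped. Pdgfrb held 44.8, 74.9, 73.2 and 177 in naive and 109, 148, 177 and 131 in incised libraries. Rgs5, chosen after its values were seen, held 243, 102, 140.5 and 101 and 105, 180, 248 and 214. The part of mural cells in the values of Acta2 and Tagln was not tested.

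Genes of intermediate filaments and lamins lay in both directions. Of 18 genes 16 were measured, 0 were called, 12 had a positive and 4 a negative log2 change, the median was 0.19, and every incised library exceeded every naive library in 4 (25%): Krt18, Vim, Krt19 and Lmna. Krt18 and Krt19 had naive means under 20, while Vim and Lmna were above that floor in both groups. Krt18, a keratin of simple epithelia, held 20.4, 21.4, 12.5 and 7.01 in naive and 122, 126, 54.5 and 48.9 in incised libraries (2.66, SE 0.46, adjusted p = 0.0714). Vim encodes vimentin, a filament protein of immature and reactive astrocytes, and held 412, 679.9, 497 and 381 in naive and 1375, 967, 1029 and 701 in incised libraries (1.15, SE 0.23, adjusted p = 0.146). Krt19 differed by 1.83 (adjusted p = 0.256) and Lmna, which encodes lamin A of the nuclear envelope, by 0.74 (adjusted p = 0.485). Another filament protein of astrocytes went the other way without passing the test: Gfap held 9707, 11290, 16270 and 11140 in naive and 8930, 7991, 10270 and 8368 in incised libraries (-0.47, adjusted p = 0.552).

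Among 22 annexin, galectin and S100 genes, which encode calcium- and glycan-binding proteins, 18 were measured and 0 were called. The groups were apart upward in 5 (27.8%), 1 of which (Anxa1) had a naive mean under 20, and the median log2 change was 0.29, or 0.02 without incised F1. Lgals1, which encodes galectin-1, held 142, 63.6, 76.1 and 51.0 in naive and 347, 416, 325 and 236 in incised libraries (2.16, SE 0.34, adjusted p = 0.0661). Anxa2, which encodes the membrane- and actin-binding annexin A2, held 791, 402, 489 and 457 in naive and 1346, 1534, 1176 and 1181 in incised libraries (1.38, SE 0.23, adjusted p = 0.0690). Anxa1, which encodes annexin A1, held 16.1, 0, 3.53 and 19.8 in naive and 105, 126, 99.2 and 41.8 in incised libraries, with naive F2 listed at 0 (adjusted p = 0.256). S100a6 held 192, 103, 170.4 and 81.9 and 376, 272, 351 and 197 (1.25, adjusted p = 0.351). The highest naive value of Lgals1, Anxa2 and S100a6 was that of F1.

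Few matrix genes were apart between the groups. Of 69 extracellular matrix genes 64 were measured, 1 rose (Efemp1), 0 fell, and the median log2 change was 0.11, or -0.02 without incised F1. Efemp1, Fn1, Fbln5 and Col4a1 were the 4 (6.25%, against 3.08% of all genes) whose groups were apart upward. Fn1, which encodes the cell-adhesive matrix protein fibronectin, held 117, 89.8, 99.4 and 81.7 in naive and 382, 386, 233 and 202 in incised libraries (1.66, SE 0.30, adjusted p = 0.0866). Col1a1, a chain of type I collagen and a fibroblast marker, held 61.1, 110.2, 187 and 114 in naive and 376, 346, 221 and 164 in incised libraries, which overlapped (adjusted p = 0.513). Bcan, which encodes the brain proteoglycan brevican, held 2880, 3197, 4627 and 4188 and 4407, 5689, 5475 and 5760 (adjusted p = 0.535), also overlapping.

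Thbs1 was the 1 called gene among the thrombospondins and their receptors. Astrocyte thrombospondins promote the formation of excitatory synapses through the calcium channel subunit alpha2delta-1, encoded by Cacna2d1. Cacna2d1, chosen after its values were seen, held 245, 307, 119 and 269 in naive and 217, 40.9, 381 and 121 in incised libraries, which overlapped (-0.46, adjusted p = 0.857, and 0.02 without incised M1). Of 19 genes on the list of thrombospondins and their receptors, 16 were measured, 1 rose (Thbs1), 0 fell and the median log2 change was -0.17. Thbs1 and Lrp1 were apart upward (12.5%, against 3.08% of all genes). Cacna2d4, which encodes another alpha2delta subunit, held 61.0, 31.5, 37.0 and 74.5 and 2.93, 29.1, 36.0 and 16.1 (-1.90, SE 0.58, adjusted p = 0.454), overlapping, with incised F1 the lowest. Lrp1, an endocytic receptor that clears thrombospondin, held 600.2, 538, 689.5 and 641 in naive and 697, 970, 1072 and 788 in incised libraries, which were apart (0.42, adjusted p = 0.585). Cd36, a receptor of thrombospondin 1 on other cell types, held 12.2, 32.0, 13.9 and 37.6 and 7.32, 2.60, 6.34 and 15.1 (-1.55, adjusted p = 0.570), overlapping. Thbs3, chosen after its values were seen, held 240.2, 149, 130 and 119 and 199, 196, 179 and 162 (0.36, adjusted p = 0.770), also overlapping.

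Genes of TGF-beta signalling and of the YAP and TEAD pathway were looked at next. Of 39 genes of TGF-beta and BMP signalling 36 were measured, 0 were called, and the median log2 change was 0.21. Of these, 2 were apart upward (5.56%, against 3.08% of all genes) and 1 downward (2.78%, against 2.82% of all genes). Bmp7, a BMP ligand, was apart upward and held 96.9, 148, 144 and 147 in naive and 157, 255, 189 and 171 in incised libraries (0.44, adjusted p = 0.729). The downward gene was Bmpr1b, a BMP receptor, with 754, 799.9, 927 and 689 in naive and 329, 609, 469 and 663 in incised libraries (-0.75, adjusted p = 0.454). Of 26 genes of the YAP and TEAD pathway, which responds to stretch and to actin tension, 25 were measured, 0 were called and 3 (12%) were apart upward: Tead1, Ankrd1 and Crim1, of which Ankrd1 had a naive mean under 20. Ankrd1 held 12.1, 3.06, 5.33 and 16.1 in naive and 23.8, 32.9, 25.3 and 27.0 in incised libraries (1.59, adjusted p = 0.528), and Ccn2 held 68.9, 14.0, 41.4 and 58.5 and 115, 211, 198 and 56.0 (1.57, adjusted p = 0.528), where incised M3 fell among the naive values.

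**Figure D3:**
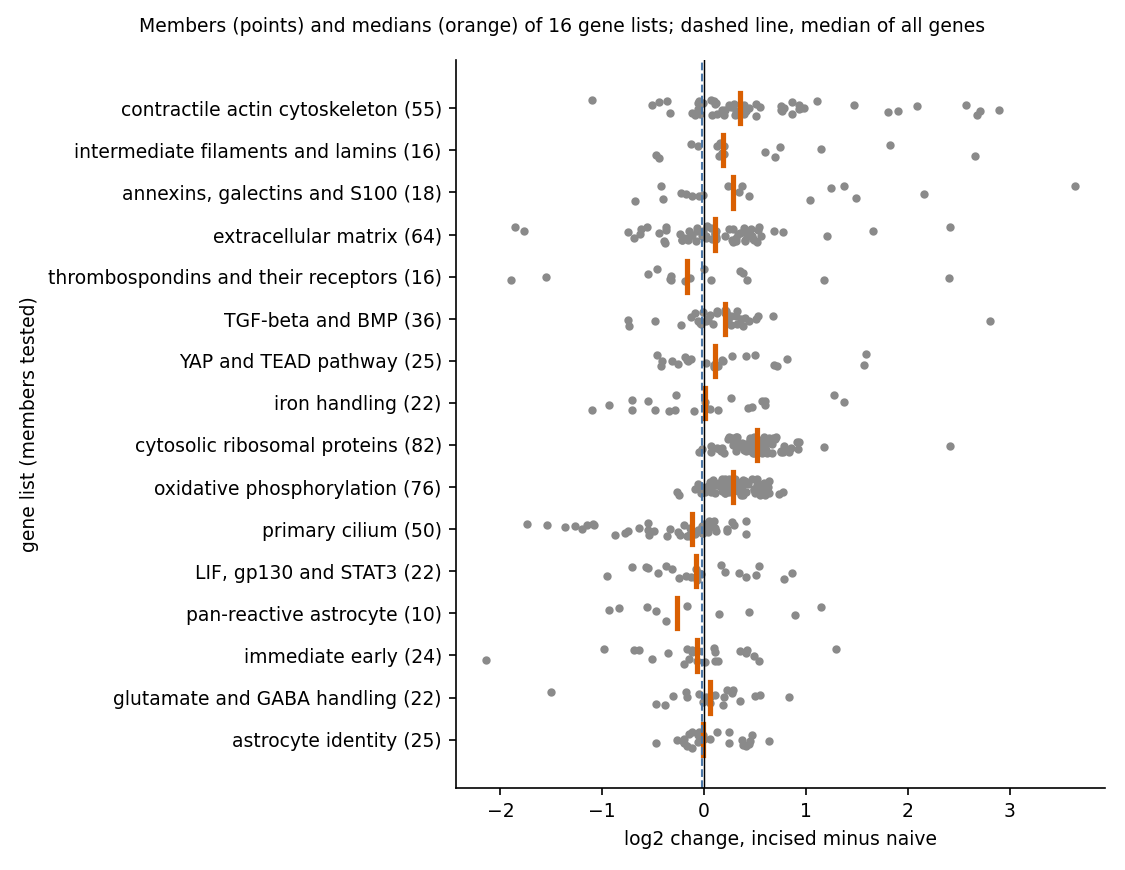
Log2 change of every measured member (grey points) and the median (orange bars) of 16 gene lists, with the number measured in brackets; the dashed line is the median of all genes (-0.023). Of 55 contractile genes 43 lie right of 0, and of the annexin list 10 lie right and 8 left. Single members of several lists lie far to the right, up to 3.645 in the annexin list. Nearly all ribosomal proteins lie right of 0 (median 0.52), and primary cilium genes spread to the left (median -0.12).

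Fth1 was the 1 called gene of iron handling. Of 24 genes 22 were measured, 1 rose (Fth1), 0 fell, and the median log2 change was 0.01. Fth1, Ftl1 and Steap2 were apart upward (13.6%) and Hmox2 downward (4.55%). Ftl1, the light chain that pairs with the Fth1 product in the ferritin shell, held 1811, 1873, 1514 and 1335 in naive and 2618, 2103, 2072 and 2550 in incised libraries (0.60, SE 0.16, adjusted p = 0.365). Steap2, a metalloreductase, held 39.2, 82.1, 47.9 and 95.6 and 152, 113, 157 and 222 (1.28, adjusted p = 0.454). Ireb2, which encodes the iron sensor IRP2 that blocks ferritin translation and acts on mRNA in the cytoplasm, held 407, 420.5, 453 and 373 in naive and 224, 144, 278 and 493 in incised libraries (-0.70, adjusted p = 0.623), with incised M3 the highest of all 8. Antioxidant and metallothionein genes, 27 measured, had a median of 0.27 with 0 called and 0 apart upward. Gclc was the 1 apart downward (3.7%, against 2.82% of all genes).

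Most genes of cytosolic ribosomal proteins had small positive log2 changes. Of 82 measured, 0 were called, 80 had a positive log2 change, the median was 0.52 and 21 (25.6%) were apart upward, none downward; 1 of the 21, Rpl10l, had a naive mean under 20. Rps19 held 455, 384, 342 and 448 in naive and 886, 786, 671 and 656 in incised libraries (0.93, adjusted p = 0.182). Rpl8 held 362, 314, 309.7 and 292 and 693, 430, 483 and 507 (0.79, adjusted p = 0.307), with incised F1 the highest. Ribosomal proteins have many processed copies, which makes their reads hard to assign. The 76 measured genes of oxidative phosphorylation had a smaller median, 0.28, with 70 positive changes, 0 called and 1 (1.32%) apart upward. Cox8a, a subunit of cytochrome c oxidase, held 529, 504, 379 and 415 in naive and 877, 574, 476 and 626 in incised libraries, which overlapped (adjusted p = 0.513).

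Both ribosomal and respiratory genes are short, and the log2 change varied with the length of a gene in the genome. The median log2 change was 0.147 in 685 genes that span up to 3 kb and 0.065 in 2724 genes of 3 to 10 kb. It was -0.037, -0.064, -0.057 and -0.030 in the bins of 10 to 30, 30 to 100, 100 to 300 and over 300 kb. Across 13977 genes, which are not independent replicates, the Spearman correlation of the change with span was -0.11. Incised F1 deviated most in the shortest bin, by 0.348 from the mean of the naive libraries, against 0.081 to 0.129 in the other incised and -0.052 to 0.057 in the naive libraries. Ribosomal genes span a median of 3.24 kb and oxidative phosphorylation genes 7.46 kb, against 24.85 kb for all genes, 26.91 kb for contractile genes and 50.67 kb for cilium genes. With the trend removed from each library, the median change was 0.38 for ribosomal, 0.22 for oxidative phosphorylation, 0.35 for contractile and -0.095 for cilium genes. The part of gene length in single genes was not tested beyond this removal.

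**Figure D4:**
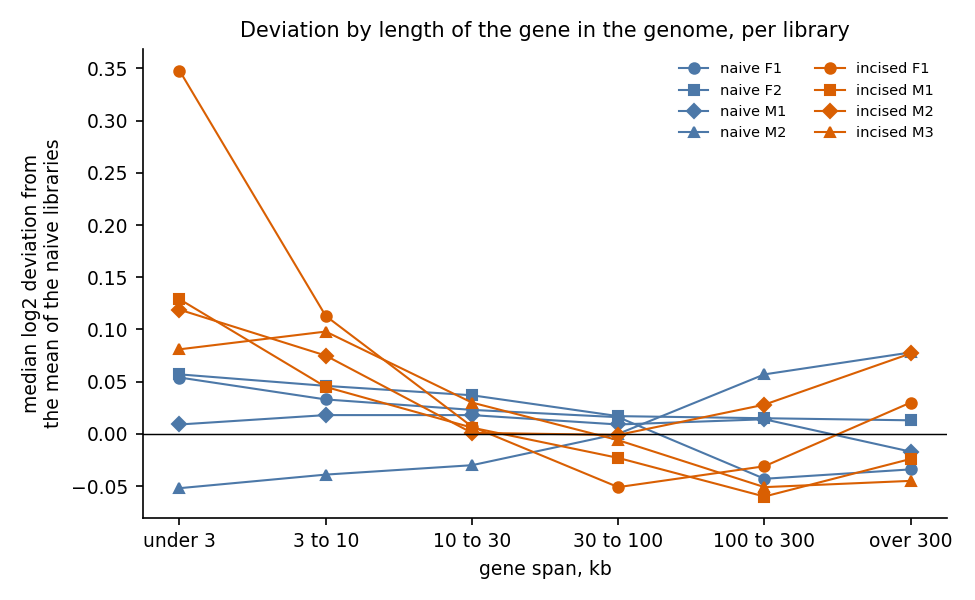
Median deviation of log2(value + 1) from the mean of the naive libraries (y) by the span of the gene in the genome in kb (x), with 1 line per library. In the shortest bin the 4 incised libraries (0.081 to 0.348) lie above the 4 naive libraries (-0.052 to 0.057), and from 10 kb on the lines lie within 0.08 of 0.

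On the lower side no gene passed the test, and the 2 of lowest p were very long genes. Dync2h1 encodes the heavy chain of dynein-2, the motor that carries cargo back from the tip of the primary cilium. It held 629.8, 547, 405 and 406 in naive and 186, 190.1, 143 and 196 in incised libraries (-1.37, SE 0.23, adjusted p = 0.0690). The highest incised value was under the lowest naive value by more than the range of the incised group. Fgf14 encodes a fibroblast growth factor that stays inside the cell and binds voltage-gated sodium channels. It held 287, 225, 289.9 and 220 in naive and 87.6, 81.1, 48.0 and 77.3 in incised libraries (-1.76, SE 0.31, adjusted p = 0.0714). Fgf14 spans 699 kb and Dync2h1 256 kb, and Fgf14 overlaps 5 annotated genes of the other strand.

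The primary cilium is an antenna built by transport of proteins along microtubules, through which astrocytes and their precursors receive Hedgehog signals. Of 50 cilium genes, all measured, 0 were called, 37 had a negative log2 change, the median was -0.12 and 4 (8%) were apart downward: Dync2h1, Ift122, Ofd1 and Tulp3. Tulp3, which carries receptors into the cilium, held 1315, 1226, 1343 and 1526 in naive and 714, 644, 1046 and 928 in incised libraries (-0.77, SE 0.19, adjusted p = 0.301). Ofd1, a protein of the centriole at the base of the cilium, held 68.4, 62.2, 69.7 and 58.0 and 42.6, 22.9, 29.2 and 17.2 (-1.15, adjusted p = 0.528). Wdr35, a part of the transport complex that returns cargo, held 136, 161, 182 and 209.7 and 37.9, 124, 90.7 and 189, where incised M3 lay within the naive range (adjusted p = 0.513). The mean log2 level of the list was 7.08 to 7.22 in naive and 6.74 to 6.86 in incised libraries.

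Other long genes were read from a list of adhesion and synaptic genes. The 44 genes, all measured, had a median log2 change of -0.11, with 0 called. In 2 (4.55%, against 2.82% of all genes) the groups were apart downward: Nrg3, with an incised mean under 20, and Magi1. Magi1, a scaffold of cell junctions, held 1046, 1148, 1106 and 1171 in naive and 902, 879, 809 and 424 in incised libraries (-0.59, adjusted p = 0.570). Of 28 genes of FGF signalling and sodium channel partners 27 were measured, with a median of -0.06. Fgfr3, the FGF receptor of astrocytes and their precursors, was the 1 apart upward (3.7%, against 3.08% of all genes). It held 1559, 1580, 2059 and 1820 in naive and 2483, 2090, 2664 and 2788 in incised libraries (0.47, adjusted p = 0.535).

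The next lower genes belong to cell shape, cytokine and cell cycle functions. Daam1 encodes a formin that nucleates actin filaments downstream of Wnt signals, and held 541, 978, 1005 and 954 in naive and 204, 354, 603 and 248 in incised libraries (-1.54, SE 0.29, adjusted p = 0.108). Naive F1 lay below incised M2, so Daam1 was the 1 gene of the 30 whose groups overlapped. The 13 measured formins had a median of 0.06, with 0 called. Gmfb encodes glia maturation factor beta, which prunes branched actin filaments, and held 699, 620.3, 571 and 448 in naive and 290.1, 279.6, 303 and 343 in incised libraries (-0.88, adjusted p = 0.256).

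Lifr encodes the receptor of leukaemia inhibitory factor, which signals with gp130 to STAT3 and drives astrocyte formation. It held 2185, 1996, 2179 and 1892 in naive and 784, 1253, 1473 and 1063 in incised libraries, lowest in F1 (-0.95, SE 0.20, adjusted p = 0.182). Of 28 genes of this pathway 22 were measured, 0 were called and the median was -0.08, with 2 apart upward (Cntfr and Socs5) and 2 downward (Lifr and Pias1), 9.09% each. Cntfr, the receptor subunit for ciliary neurotrophic factor, held 83.3, 56.1, 81.5 and 106 in naive and 168, 127, 148 and 124 in incised libraries (0.78, adjusted p = 0.570). Stat3, chosen after its values were seen, held 953, 689, 1002 and 934 and 574, 989, 837 and 455, which overlapped (-0.45, adjusted p = 0.685).

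Ccnd2 and Ccnd1 encode D cyclins, which drive entry into the cell cycle, and their values lay in opposite directions. Ccnd2 held 1068, 883, 1085 and 1238 in naive and 557, 653, 691 and 526 in incised libraries (-0.87, SE 0.18, adjusted p = 0.182). Ccnd1 held 163, 52.6, 46.5 and 98.8 in naive and 248, 328, 405 and 140.4 in incised libraries, with incised M3 below naive F1 (1.76, SE 0.45, adjusted p = 0.329). Neither passed the test. Of 32 cell cycle genes 31 were measured, 0 were called, and the median was 0.24, or -0.41 without naive M2. Their sum was 1834 to 7741 in naive and 4454 to 5275 in incised libraries, so the naive pups spanned the incised ones. Their mean log2 level was 7.65, 7.28, 7.12 and 5.39 in naive and 6.85 to 7.05 in incised libraries, so that naive M2 alone lay below the incised pups and the other naive pups lay above them. Foxm1, a transcription factor of dividing cells, was the 1 cell cycle gene apart upward (3.23%, against 3.08% of all genes). It held 46.8, 29.1, 17.9 and 31.7 in naive and 109, 60.7, 58.6 and 48.5 in incised libraries (adjusted p = 0.459).

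The rest of the lower genes serve varied functions. Eif4enif1, which holds mRNA caps in a repressed state, held 398, 394, 365 and 499 in naive and 121, 256, 232 and 185 in incised libraries (-1.21, adjusted p = 0.182). Vhl, which marks hypoxia-inducible factors for destruction, held 459, 445, 489 and 458 and 238, 289.5, 210.4 and 260.2 (-0.91, adjusted p = 0.243). Wdr41, a partner of the protein encoded by C9orf72, held 96.3, 140.1, 95.3 and 90.1 and 54.3, 22.7, 18.9 and 12.2 (-1.90, SE 0.43, adjusted p = 0.243), the largest decrease in size of the 15. For Vhl the naive pups lay within a narrow range, whereas Wdr41 ranged widely among incised pups.

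Inpp4a, a lipid phosphatase that acts on a product of PI3 kinase, held 1098, 976, 1030 and 1124 in naive and 613, 568, 636 and 662 in incised libraries (-0.78, adjusted p = 0.211). Maml2, a coactivator of Notch, held 845, 899, 1162 and 826 and 445, 696, 343 and 402 (-1.05, adjusted p = 0.243). Gsap, which encodes a protein that binds gamma-secretase, held 264, 391, 387 and 327 and 97.4, 98.7, 195 and 214 (-1.35, adjusted p = 0.243). The groups did not overlap in any of these 3. Zfp868, Mtfr1l and Tspyl2 differed by -0.95, -1.05 and -0.89, with adjusted p of 0.209, 0.211 and 0.243. On the higher side, BC005537 held 108, 114, 120.5 and 103 in naive and 337, 460.5, 268 and 282 in incised libraries (1.56, adjusted p = 0.0714) and Serf2 held 764, 714, 813 and 648 and 1400, 1357, 1288 and 1499 (0.92, adjusted p = 0.0960).

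Lists of astrocyte function and injury response gave no called gene. Slc6a11, the GABA transporter GAT-3 of astrocytes, was the gene of lowest p in the glutamate and GABA list and held 1551, 1629, 1853 and 1381 in naive and 2562, 2836, 2856 and 3370 in incised libraries (0.83, SE 0.17, adjusted p = 0.182). It was the 1 of 22 measured genes apart upward (4.55%, against 3.08% of all genes), and the list median was 0.06. Slc38a3, a glutamine transporter, held 1200, 1152, 1623 and 1370 and 1587, 2320, 1697 and 2606, which overlapped (0.50, adjusted p = 0.536). The 21 ion, water and gap junction genes had a median of 0.03 with 2 apart upward (9.52%).

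Pan-reactive genes, which rise in astrocytes after most injuries of the adult nervous system, had a median of -0.27 over 10 measured genes (0.02 without incised M3), with Vim the 1 apart upward (10%). The A1 and A2 sets, named from responses to inflammation and ischaemia, had medians of -0.22 (9 genes, -0.04 without incised M1) and 0.01 (11 genes). Fbln5 was the 1 A1 gene apart upward (11.1%). Cytokine and NF-kB genes had a median of 0.03 (18 genes). Interferon response genes had one of 0.00 (18 genes), with B2m the 1 apart upward (5.56%). Immediate early genes had a median of -0.07 (24 genes). Zfp36, which encodes an mRNA decay factor induced with the immediate early genes, was the 1 of them apart downward (4.17%, against 2.82% of all genes), with an incised mean under 20. It held 22.3, 60.8, 43.3 and 43.9 in naive and 14.0, 2.52, 18.7 and 4.90 in incised libraries (-2.14, SE 0.63, adjusted p = 0.454). Heat shock genes (19 measured) had a median of 0.00 and unfolded protein response genes (22 measured) of -0.07. No gene of these 8 lists was called.

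Hormone, clock and metabolic lists also held 0 called genes. The 14 measured hypoxia genes had a median of 0.31. Vegfa, a growth factor for vessels, was the 1 of them apart upward (7.14%, against 3.08% of all genes). It held 183, 152, 268 and 126 in naive and 481, 315, 276 and 396 in incised libraries (1.07, SE 0.29, adjusted p = 0.394). The 21 glucocorticoid targets had a median of 0.13. Of 18 measured clock genes, Clock and its repressor Bhlhe41 were apart downward (11.1%, against 2.82% of all genes). Dbp was apart upward (5.56%, against 3.08% of all genes). Clock held 383, 406, 403 and 369 in naive and 162, 185, 354 and 292 in incised libraries (adjusted p = 0.513), and Dbp held 8.21, 31.0, 32.5 and 19.0 and 37.4, 79.3, 72.5 and 58.1 (adjusted p = 0.531). The time of day of collection is not given in the sources used here. Cholesterol synthesis (25 genes) had a median of 0.32, or 0.03 without naive M2, which was low for the list, and glycolysis (20 genes) one of 0.01.

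The 4 called genes were set beside their values at later ages, 7 and 21 days after incision, without a test across ages, since each age was normalized in a table of its own. At P10, with 3 naive and 3 incised pups, Thbs1 ranged from 236.7 to 439 in naive and from 208 to 358 in incised libraries, and at P24, with 4 and 4 pups, from 40.7 to 104 and from 33.6 to 77.9. Tpm2 ranged from 124 to 231 and from 151 to 212 at P10, and from 31.2 to 67.9 and from 47.0 to 60.3 at P24. Efemp1 ranged from 112 to 173 and from 123 to 256.5 at P10, and from 21.1 to 51.0 and from 40.5 to 62.8 at P24. Fth1 ranged from 1503 to 2181 and from 1802 to 2200 at P10, and from 3468 to 4949 and from 3333 to 3861 at P24. The groups overlapped at P10 and at P24 for each of the 4 genes. Of the 30 genes of lowest p at P4, 30 were measured at P10, where 0 were apart. At P24 27 were measured, of which Acta1 was apart upward and Dync2h1 downward, each in its P4 direction. The shares of all genes apart at P10 and P24 are not given here. The counts are therefore descriptions and show neither persistence nor loss of a change. At P24 Acta1 ranged from 12.5 to 36.7 in naive and from 39.6 to 72.1 in incised libraries, with a difference of mean log2 levels of 1.34. Dync2h1 ranged from 409 to 607 and from 249 to 388, with a difference of -0.56. Differences of mean log2 levels, incised minus naive, were -0.18, 0.09, 0.14 and 0.05 at P10 and -0.28, 0.17, 0.68 and -0.28 at P24 for Thbs1, Tpm2, Efemp1 and Fth1. Libraries whose labels disagree on their group were left out of these values.

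**Figure D5:**
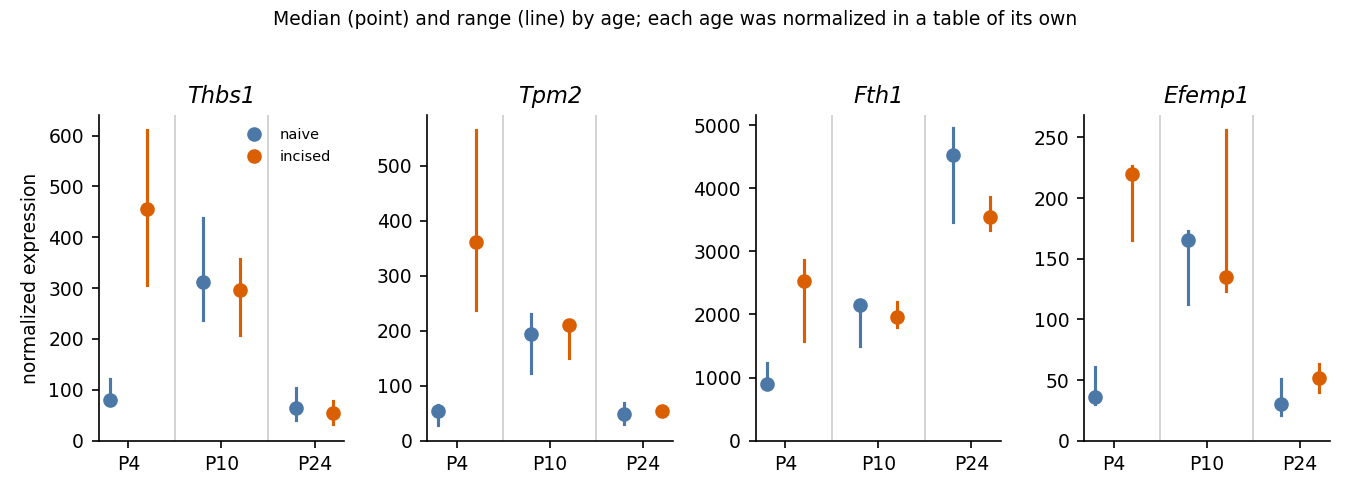
Median (points) and range (lines) of normalized expression in naive and incised libraries at P4, P10 and P24, on linear axes from 0; each age was normalized separately, so heights are read within an age. At P4 the ranges are apart in all 4 panels, and at P10 and P24 they overlap.

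In a further table the authors normalized the naive pups of the 3 ages together, which places the naive P4 level of these genes. That table also held a library whose labels disagree on its group, and the values below leave it out. There Thbs1 had medians of 95.7 at P4 (n = 4), 359 at P10 (n = 3) and 56.7 at P24 (n = 4). Tpm2 had medians of 68.4, 262 and 34.2, and Efemp1 of 42.6, 194 and 26.2 at these ages. Naive pups thus held higher levels of these 3 genes at P10 than at P4 or P24, with ranges that did not overlap between P10 and the other ages. Fth1 followed another order, with medians of 1070, 2540 and 3903, and its ranges did not overlap between ages. Fgf14, the lower gene with the longest span, had naive medians of 299, 142 and 122. Its P4 range of 257 to 341 lay above those of P10 (62.2 to 203) and P24 (113 to 141). These comparisons of ages are descriptions of the authors' normalized values.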

How the data were processed

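Nuclear RNA of sorted dorsal horn astrocyte nuclei was sequenced, with 1 library per pup. Per the submitters' processing notes, the authors used STAR, Salmon and DESeq2 with the mm10 genome, in versions that are not given. The deposited signal is normalized expression from DESeq2, per the file headers; the values are not whole and their ratio between deposited tables differs from gene to gene, so reads could not be recovered and depth is unknown. Genes had to reach 10 counts in 4 samples and later, in some group, a normalized expression over 20 and a coefficient of variation under 0.65, per the deposited description. The genes measured here therefore passed filters on level and spread. The fold changes and p-values in the deposited tables were not used.

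Groups came from the sample titles. Log2(value + 1) was modelled on group and sex with limma 3.58.1 (R 4.3.3, statmod 1.5.0), using its trend and robust options. A mean of at least 10 was required, which left out 0 of 14243 genes. Log2 changes are incised minus naive on this scale, on which low genes change by less than their true fold. P-values are 2-sided with Benjamini-Hochberg adjustment over all genes, and a gene was called at an adjusted p under 0.05. The script was tested on simulated data. Gene coordinates and spans are from GENCODE M21 (GRCm38, the same build as mm10), matched by symbol for 13977 genes. Promoters are from RefSeq, with an entry for 24 of 30 named genes. Genes to be named were chosen from every called gene, the 15 genes of lowest p in each direction, the 4 members of lowest p in a list and 8 astrocyte genes; not every list member so chosen is shown, and 1 of the 30 genes of lowest p is not reported here. The comparison and the 47 gene lists, of which 45 had at least 3 measured members, were chosen with earlier results of these data known.

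Alternatives were 2 other pseudocounts, other filters, limma without its trend and robust settings, no sex term, males alone, quantile normalization, median centring, removal of each library's trend with gene span, a replicate block, an adjusted p under 0.1 and leaving out each library in turn. Library weights, and the 6 libraries of the block fitted without it, were added after the data were seen.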

Additional observations from a re-analysis of the deposited data

Results flagged for a closer look

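Among 166 groups of 4 libraries (38 genes and 45 list means, naive and incised), 9 held a library far from the other 3 relative to the range of the group. Chance flags about 1 in 20 groups. Efemp1 in incised M3 was 165.4, against 217 to 226 in the other incised libraries. Dync2h1 in incised M2 was 142.8, against 186 to 196. Daam1 in naive F1 was 540.6, against 954 to 1005. Wdr41 in naive F2 was 140.1, against 90.1 to 96.3. Sox9 in incised M3 was 2498, against 2187 to 2224. Kcnj10 in incised M2 was 340.7, against 518 to 534.5.

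Naive M2 had the lowest mean log2 level of the immature progenitor list, at 9.557, against 9.832 to 9.886 in the other naive libraries. It also had the highest mean of the oligodendrocyte precursor list, at 6.393, against 6.236 to 6.256. Incised M2 had a mean of 6.142 for the A1 reactive list, against 5.539 to 5.569. No cause was tested for any of these values.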

How the results depend on the processing

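The 4 genes called higher, and 0 lower, held with a pseudocount of 0.5 and with libraries centred on their median. The fit without a filter on low values is the same fit, since the filter left out 0 genes. The count of higher genes was 6 with a pseudocount of 5 and 3 with the gene span trend removed. It was 8 higher and 1 lower with a mean of at least 50, 10 and 2 without the sex term, 13 and 2 with quantile normalization, 14 and 2 at an adjusted p under 0.1, and 15 and 4 with library weights, which were added after the data were seen. It was 0 and 0 without limma's trend and robust settings, and 1 and 0 in males alone. The 1 gene called in males was Gm7367. The cause of these moves was not tested. Leaving out 1 library gave 0 to 7 higher genes and 0 to 2 lower genes.

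Whether replicate labels pair the pups could not be settled. Correlations of deviations between naive and incised libraries of unlike labels ran from -0.053 to 0.066. Those of the same label, -0.046 for F1, 0.011 for M1 and 0.026 for M2, lay within that range, which cannot exclude a shared litter. With a replicate block over those 6 libraries 5 genes were higher and 0 lower: Thbs1, Tpm2 and Fth1 kept their call and Efemp1 lost it (adjusted p = 0.0686), and the same 6 libraries without the block, added after the data were seen, gave 2 and 0, with only Thbs1 of the 4 kept.

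Over 630 alternative values of the 30 genes of lowest p, 547 kept their direction and their side of the threshold, 46 passed it, 37 lost it and 0 turned direction. These genes were picked by this contrast, and the groups did not overlap in 29 of the 30. A turn of direction was therefore hardly possible, and its absence is no check of them. The 630 values include the fit without a filter, which is the main fit. Changes near 0 turned for 4 astrocyte genes. Slc1a2 was at 0.07 without the sex term, at 0.01 with the block and at 0.01 in the same 6 libraries without it. Slc1a3 was at 0.38, Gja1 at 0.17 and Aldh1l1 at 0.14 in males alone, and Aldh1l1 was at 0.03 with quantile normalization and 0.04 without the span trend. Leaving out incised F1, the only incised female, gave the same log2 changes as males alone and is no separate check of them. Leaving out 1 library gave -0.23 to 0.14 for Slc1a2, -0.42 to 0.38 for Slc1a3, -0.21 to 0.14 for Aldh1l1 and -0.37 to 0.17 for Gja1. Leaving out 1 library gave -0.94 to 0.02 for Cacna2d1. Of 945 alternative values of the 45 list medians, 914 moved by less than the spread between libraries.

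Depth is unknown, 4 pups a group limit the precision, and the authors' filters on level and spread limit which genes are in the table.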
